A study of Mus musculus with 4 samples.

Results

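The gene set described here holds the 32 genes of glycolysis and of the response to low oxygen, taken by name from the 32285 genes of the count tables of 4 mouse liver libraries. They fall into 3 roles: glucose uptake and lactate export (Slc2a1, Slc2a3, Slc16a1, Slc16a3), glycolytic enzymes (Hk1, Hk2, Hk3, Gpi1, Pfkl, Pfkm, Pfkp, Aldoa, Aldoc, Tpi1, Gapdh, Pgk1, Pgam1, Bpgm, Eno1, Pkm, Ldha, Ldhb), and the factor HIF-1alpha with its regulators and induced genes (Hif1a, Egln1, Egln3, Pdk1, Bnip3, Ndufa4l2, Vegfa, P4ha1, Ddit4, Mif). All 32 had at least 1 UMI (a counted transcript molecule) in each library.

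The study profiled single liver cells of male mouse offspring of mothers with intrauterine hyperglycemia (IHG) or of control mothers (Ctrl), to look at inflammatory traits of the liver. The groups were adult IHG and adult Ctrl offspring at 8 weeks of age, and fetal IHG and fetal Ctrl offspring at E18.5 (embryonic day). Each group is 1 library of cells pooled from 3 adult animals or from the litters of 3 pregnant mice. The strain and the way the mothers were made hyperglycaemic are not given in the sources used here. Adult livers were perfused through the portal vein, and all livers were digested with enzymes, spun at low speed and treated to lyse red cells, so the shares of cell types are those left by these steps.

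Glycolysis splits glucose to pyruvate and is the route by which cells without mitochondria, such as mature red cells, make ATP. When oxygen is scarce, prolyl hydroxylases such as those encoded by Egln1 and Egln3 stop marking HIF-1alpha for destruction, and the factor then raises glucose transporters, most glycolytic enzymes and genes that spare mitochondrial oxygen use. In the late fetal liver, which is still a site of blood formation, erythroid cells carry out this metabolism while they fill with haemoglobin.

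The fetal IHG and fetal Ctrl libraries held 8739 and 8500 cell barcodes with a median of 9116 and 6645 UMIs, and the adult IHG and adult Ctrl libraries 6851 and 5245 barcodes with 2235 and 2558 UMIs. Haemoglobin transcripts made up 20.4% of UMIs in fetal IHG and 35.4% in fetal Ctrl, against 0.0110% in adult IHG and 0.000256% in adult Ctrl. The 95th percentile of the mitochondrial share per barcode was 6.43% in fetal IHG and 23.8% in fetal Ctrl, which stands apart from the 7.27% and 8.999% of the adult IHG and adult Ctrl libraries. Pairs of libraries shared 8 to 26 barcodes. Cell classes were rebuilt from marker genes and are called X-like; the adult libraries had no erythroid-like and no hepatocyte-like class, although the labelled tissue is liver. With 1 library per group there is no replicate check and no test: every difference below compares 2 libraries, and the 95% intervals cover counting error only.

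RefSeq promoter entries on GRCm38.p6 were found for 30 of the 32 genes, all but Ndufa4l2 and Slc2a3. The core of the element that HIF binds was searched as ACGTG or GCGTG on both strands, which read CACGT or CACGC on the printed strand. At least 1 match stood in a promoter of 27 of the 30 genes, against 46.7% of all 27025 genes with an entry, and ACGTG alone in 73.3% of the 30, against 21.8% of all. A gene counted if any of its promoter entries matched, and all genes were not matched to the members for gene type or base content. The list was drawn up to hold HIF-induced genes, so these shares are a description only. Bpgm, Gpi1 and Tpi1 had no match in this window. The 250 bases before the start site of the promoter entry are shown for 5 genes that recur below. This site can differ from the gene start, and the windows of Slc2a1, Ldha and Bpgm reach into or lie inside the gene as GENCODE places it. Pgam1, Egln3, Slc2a1 and Bpgm were called higher in IHG in 4 or more erythroid-like clusters. Ldha has the most matches, and Bpgm has none. Gpi1, which has no match either, was called higher in 5 of those clusters. Capitals mark the matches, and CACGTG holds overlapping matches on both strands. The windows are chr19:41911621-41911870 on the + strand for Pgam1, chr12:54203875-54204124 on the - strand for Egln3, chr4:119108495-119108744 on the + strand for Slc2a1, chr7:46845554-46845803 on the + strand for Ldha and chr6:34476106-34476355 on the + strand for Bpgm.
Pgam1: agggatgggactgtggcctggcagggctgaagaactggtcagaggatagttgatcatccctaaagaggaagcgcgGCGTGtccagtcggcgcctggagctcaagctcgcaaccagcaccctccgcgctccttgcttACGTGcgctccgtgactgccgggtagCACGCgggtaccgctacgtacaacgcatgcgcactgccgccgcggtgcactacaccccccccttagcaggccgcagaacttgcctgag
Egln3: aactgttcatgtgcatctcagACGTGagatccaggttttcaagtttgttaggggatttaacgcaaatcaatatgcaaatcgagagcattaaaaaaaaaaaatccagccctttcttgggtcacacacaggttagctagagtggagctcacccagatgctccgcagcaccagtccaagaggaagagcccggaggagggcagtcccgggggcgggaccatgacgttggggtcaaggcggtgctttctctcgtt
Slc2a1: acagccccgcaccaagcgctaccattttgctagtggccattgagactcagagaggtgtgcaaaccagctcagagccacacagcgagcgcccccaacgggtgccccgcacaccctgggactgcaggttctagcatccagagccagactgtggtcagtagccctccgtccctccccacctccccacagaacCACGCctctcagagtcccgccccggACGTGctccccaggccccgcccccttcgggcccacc
Ldha: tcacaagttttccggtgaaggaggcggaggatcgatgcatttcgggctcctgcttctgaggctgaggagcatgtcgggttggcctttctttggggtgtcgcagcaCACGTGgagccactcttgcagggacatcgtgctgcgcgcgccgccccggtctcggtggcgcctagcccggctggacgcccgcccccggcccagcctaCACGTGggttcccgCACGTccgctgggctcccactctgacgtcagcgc
Bpgm: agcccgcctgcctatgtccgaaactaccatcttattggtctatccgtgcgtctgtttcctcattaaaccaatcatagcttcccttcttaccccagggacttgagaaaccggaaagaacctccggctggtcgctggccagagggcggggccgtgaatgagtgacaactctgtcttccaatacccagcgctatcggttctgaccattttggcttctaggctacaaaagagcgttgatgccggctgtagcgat
A match is a run of letters and not a shown site of binding.

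Levels are given as CPM (counts scaled to an equal total per class), the UMIs of a gene in a cell class divided by all UMIs of that class in the library. Because 3′ counts are not scaled by transcript length, levels are compared between cells and not between genes. Several genes kept a fixed place among the cell classes. Slc16a3, which exports lactate, was highest in neutrophil-like cells of every library among classes of at least 50 cells, at 726 CPM in adult IHG and 711 CPM in adult Ctrl, and at 192 CPM in fetal IHG and 102 CPM in fetal Ctrl. In B-like cells the same gene was at 0.14 CPM in adult IHG, 0.95 CPM in adult Ctrl, 1.76 CPM in fetal IHG and 1.43 CPM in fetal Ctrl. Slc2a3, a high-affinity glucose transporter, was likewise highest in neutrophil-like cells of every library.

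Of the 3 hexokinases, each had another place. In the fetal libraries Hk1 was highest in erythroid-like cells, at 66.9 CPM in IHG and 40.6 CPM in Ctrl, where its interval overlapped that of endothelial-like cells. Hk2 was nearly lacking there, at 2.04 CPM in IHG and 0.93 CPM in Ctrl, against 229 CPM in adult IHG and 248 CPM in adult Ctrl conventional dendritic-like cells and 679 CPM in the 61 stellate/fibroblast-like cells of adult IHG. Hk3, known from white cells, was at 136 CPM in adult IHG and 115 CPM in adult Ctrl neutrophil-like cells, and had no UMI in adult cholangiocyte-like cells of either library. Bpgm, whose product makes the 2,3-bisphosphoglycerate that lowers the oxygen affinity of haemoglobin, and Slc2a1, the glucose transporter of fetal mouse red cells, were both highest in erythroid-like cells at the fetal stage, although the intervals of Slc2a1 overlapped in fetal Ctrl, with 39.1 CPM in erythroid-like and 37.3 CPM in monocyte-like cells. In fetal Ctrl, haemoglobin was 53.1% of UMIs in erythroid-like and 7.73% in monocyte-like cells. The closeness of the 2 Slc2a1 values therefore depends on haemoglobin being in the CPM total. Aldoc was highest in hepatocyte-like cells of the fetal libraries and in cholangiocyte-like cells of the adult ones. The adult cholangiocyte-like cluster had the hepatocyte markers Ttr and Alb among its leading genes. The part of hepatocyte transcripts in its Aldoc value was not tested.

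By CPM, the top class of Ndufa4l2 differed between the fetal libraries. This HIF-induced gene encodes a mitochondrial protein that lowers oxygen use. It was highest in erythroid-like cells of fetal IHG at 167 CPM (interval 163 to 170), whereas in fetal Ctrl endothelial-like cells came first at 64.3 CPM (43.1 to 92.4) and hepatocyte-like cells followed at 49.9 CPM (36.8 to 66.1), with overlapping intervals. The CPM total includes haemoglobin. In fetal Ctrl it made up 53.1% of UMIs in erythroid-like, 6.18% in endothelial-like and 15.8% in hepatocyte-like cells. The order of classes in fetal Ctrl therefore depends on haemoglobin being in the total. In the adult libraries 4 UMIs in stellate/fibroblast-like cells of IHG, 1 in B-like cells of IHG and 1 in endothelial-like cells of Ctrl were all that the classes of at least 50 cells held.

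**Figure D1:**
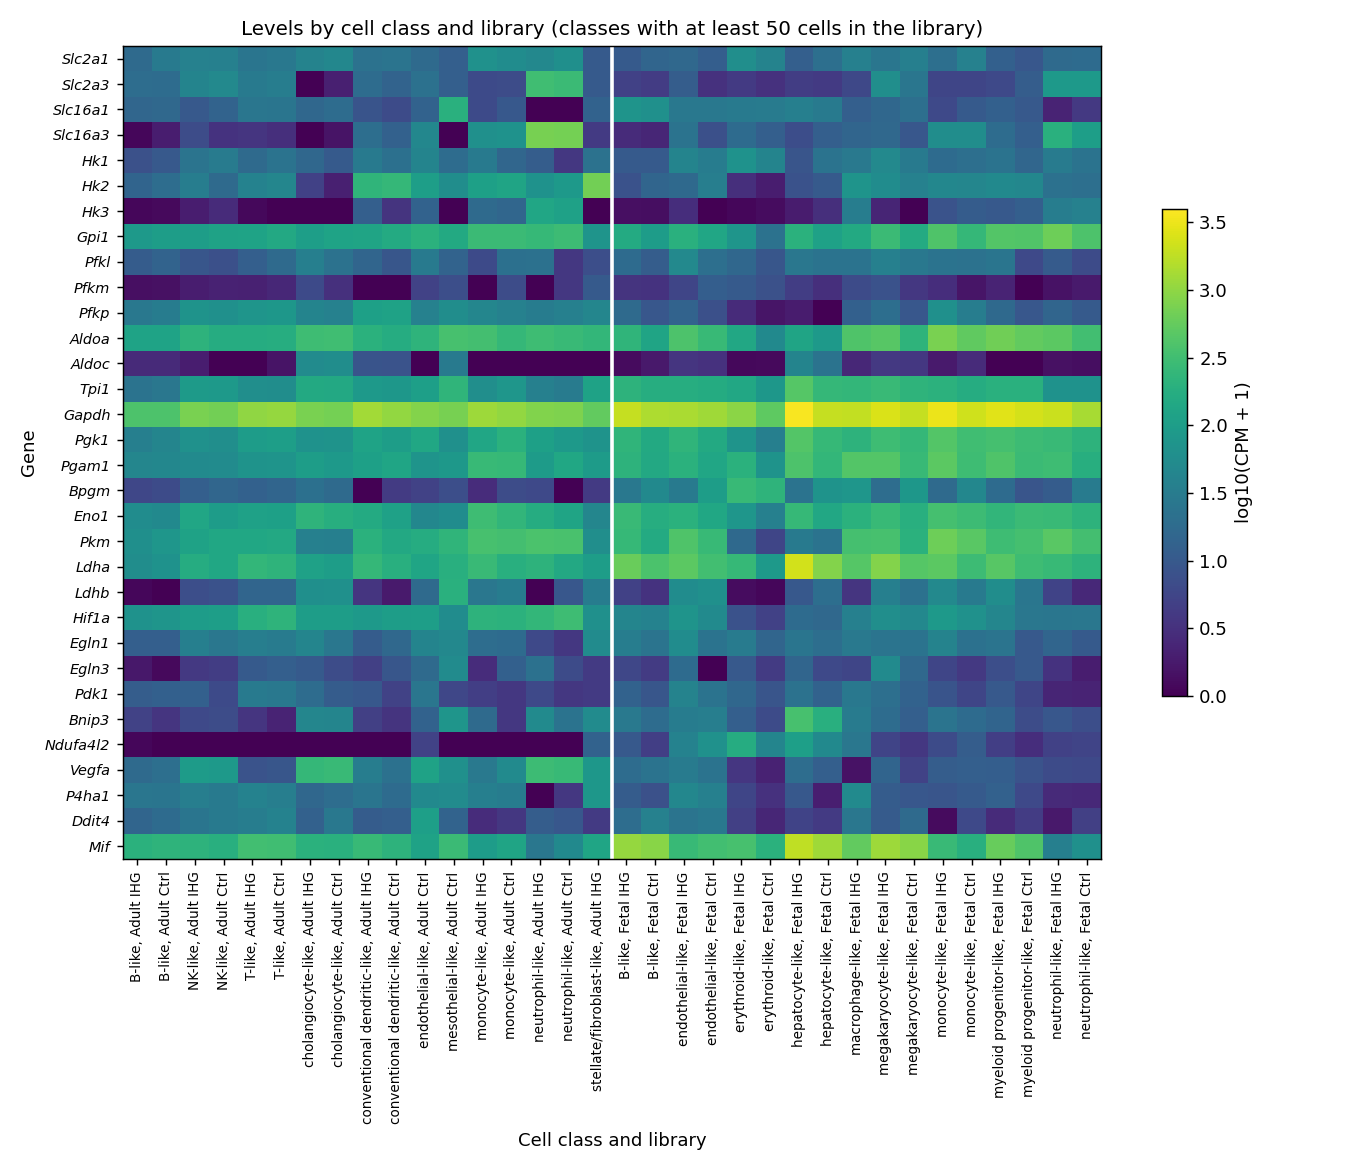
Level of each gene as log10(CPM + 1), by cell class and library, for classes with at least 50 cells in the library; adult columns stand left of the white line and fetal ones right of it. Slc16a3 is brightest in neutrophil-like columns, Bpgm in the fetal erythroid-like ones, and Ndufa4l2 is dark in nearly all adult columns.

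Erythroid-like cells were the largest class of the fetal libraries, with 2678 cells in IHG and 3131 in Ctrl. Several glycolytic enzymes and HIF-induced genes were higher in the IHG library, among them Ndufa4l2, Pgam1 and Egln3, and for Ndufa4l2 and Pgam1 the difference from Ctrl was larger in cells richer in haemoglobin. Over the whole class Ndufa4l2 was at 167 CPM in IHG and 42.8 CPM in Ctrl, and Pgam1, the phosphoglycerate mutase of most tissues, at 197 CPM in IHG and 70.7 CPM in Ctrl. Egln3, which encodes a HIF prolyl hydroxylase that HIF itself induces, was at 9.20 CPM in IHG and 3.19 CPM in Ctrl.

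The whole class mixes cells at unlike stages. Its haemoglobin share was 36.9% of UMIs in IHG and 53.1% in Ctrl, its median cell had 17421.5 UMIs in IHG and 12917 in Ctrl, and the median gene had a log2 ratio of IHG over Ctrl of 0.70. Ratios are therefore also given relative to the median gene of the class, and a gene is called higher or lower when it lies at least 1.5-fold from that median, among genes with at least 20 UMIs in both libraries together. By this rule 9 of the 32 genes were higher in IHG, beside 18.2% of all genes measured, and 3 were lower, beside 14.4% of all genes. The 9 were Gpi1, Pfkp, Aldoa, Pgam1, Pkm, Ldha, Egln3, Ndufa4l2 and Ddit4, and the 3 were Slc16a1, Hk3 and Aldoc. Hk3 and Aldoc rested on 9 and 11 UMIs in IHG and on 14 and 11 UMIs in Ctrl. Without centring on the median gene, 26 were higher and 1 lower, beside 58.2% and 2.20% of all genes, since the median gene itself then lies past 1.5-fold. Without the cluster poorest in haemoglobin Pfkp had a relative log2 ratio of -0.65, and with each library clustered by itself Pfkp was at -0.48 and Ldha at -0.021, so these calls rest on that cluster or on how the class was drawn. The other 20 genes were not called, among them Gapdh, at 929 CPM in IHG and 506 CPM in Ctrl, with a relative log2 ratio of 0.18.

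The class was made up of 7 clusters, and all held at least 50 cells of each library. Clustering did not use the 32 genes. Ordered by haemoglobin, the clusters had 0.94, 17.5, 21.4, 49.4, 74.4, 83.5 and 83.8% haemoglobin UMIs in IHG, against 1.40, 16.1, 26.5, 49.9, 74.9, 85.2 and 86.1% in Ctrl. They held 402, 312, 283, 523, 371, 559 and 228 IHG cells, against 78, 283, 346, 810, 613, 586 and 415 Ctrl cells. Inside a cluster the median gene lay near a log2 ratio of 0, between 0.03 and 0.29.

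In the same order, 6 of 29, 7 of 27, 8 of 27, 9 of 26, 12 of 21, 12 of 18 and 8 of 16 measured members were higher in IHG relative to the cluster median. The share of all genes called higher was 12.0, 9.28, 8.36, 8.75, 11.7, 14.1 and 13.5%. Members called lower numbered 2, 2, 2, 3, 0, 0 and 0, where 7.83, 9.42, 7.64, 10.4, 11.8, 14.0 and 13.5% of all genes were lower. The members' median relative log2 ratio was 0.06, 0.20, 0.25, 0.33, 0.86, 0.85 and 0.70. The members' count of higher genes thus lay above the share of all genes in every cluster. It was nearest to that share in the poorest cluster, at 6 of 29, and well above it in the others.

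By role, the HIF factor and induced genes had the larger median relative log2 ratios, at 0.14, 0.25, 0.44, 1.00, 1.02, 1.72 and 1.14 from the cluster poorest in haemoglobin to the richest. The enzymes had medians of 0.11, 0.08, 0.22, 0.29, 0.53, 0.77 and 0.83. The 4 transport genes varied without order, at -0.18, 0.04, -0.32, 0.22, 0.89, 0.77 and 0.01. Fewer genes were measured in the haemoglobin-rich clusters, so these medians are not over the same genes.

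**Figure D2:**
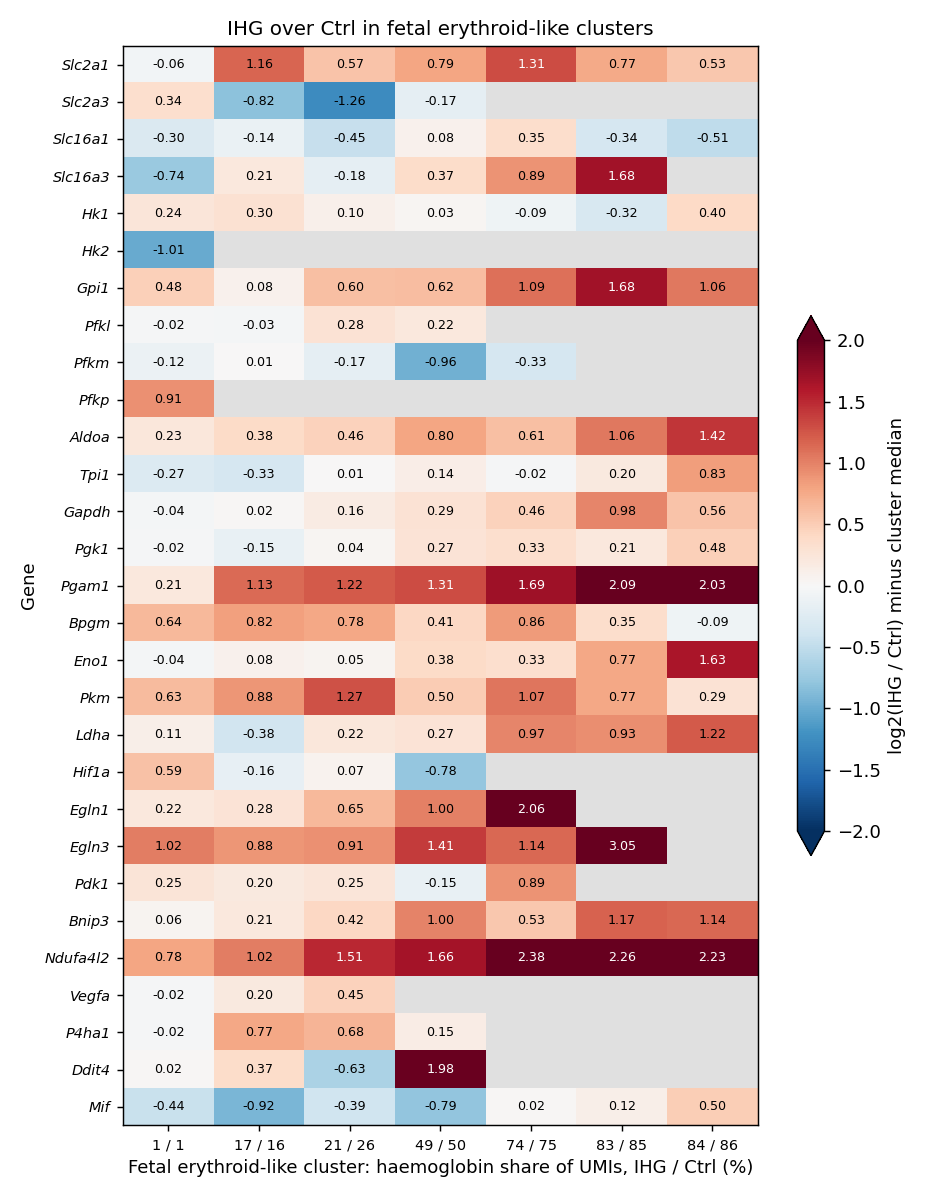
Log2 ratio of CPM, IHG over Ctrl, minus the median gene of the cluster, for the 29 members measured in at least 1 of the 7 fetal erythroid-like clusters; columns run from the cluster poorest in haemoglobin to the richest and grey cells had under 20 UMIs. Ndufa4l2 is above 0 in all 7 columns, Pgam1 and Egln3 also are wherever measured, and red deepens to the right for Gapdh, Ldha and Aldoa.

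Ndufa4l2 (chromosome 10, 127514967 to 127517154 on the + strand of GRCm38, protein-coding) was higher in IHG in all 7 clusters. From the least to the most haemoglobin it had 260, 172, 197, 105, 141, 63.5 and 90.6 CPM in IHG, against 142, 81.0, 61.2, 31.1, 26.4, 12.2 and 15.8 CPM in Ctrl. As a share of all UMIs, haemoglobin included, the level was lower in the haemoglobin-rich clusters of both libraries, and more so in Ctrl. From the poorest to the richest cluster, haemoglobin rose from 0.94 to 83.8% of UMIs in IHG and from 1.40 to 86.1% in Ctrl. A larger haemoglobin share lowers the CPM of every other gene, so CPM alone does not give the course of Ndufa4l2 along the clusters. Relative to the cluster median the log2 ratio was 0.78, 1.02, 1.51, 1.66, 2.38, 2.26 and 2.23. In the cluster with 74.4% haemoglobin in IHG the log2 ratio before centring was 2.41 (interval 2.20 to 2.63), from 659 UMIs in IHG and 234 in Ctrl.

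Pgam1 (chromosome 19, 41911923 to 41918660, + strand), whose promoter letters are shown above, was called higher in 6 of 7 clusters. It had 229, 280, 305, 156, 161, 76.7 and 97.8 CPM in IHG, against 186, 123, 116, 59.4, 48.7, 16.6 and 19.5 CPM in Ctrl. The exception was the cluster poorest in haemoglobin, with a relative log2 ratio of 0.21; in the others it lay between 1.13 and 2.09. Pgk1, the enzyme 1 step before it, was never called, and its relative log2 ratios lay between -0.15 and 0.48. Eno1, the enzyme after it, was called higher in the last 2 clusters only, at 0.77 and 1.63, on 46 and 17 UMIs in IHG and on 20 and 7 in Ctrl.

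Egln3 (chromosome 12, 54178981 to 54203860, - strand) was sparse and was higher in IHG in each of the 6 clusters where it was measured. It had 13.2, 8.71, 10.4, 8.42, 7.91 and 4.54 CPM in IHG, against 5.94, 4.48, 4.87, 2.98, 3.50 and 0.44 CPM in Ctrl. The last pair rests on 38 UMIs in IHG and 3 in Ctrl, a log2 ratio of 3.16 (interval 1.71 to 5.70). Egln1, the main HIF prolyl hydroxylase, was called higher in 3 of 5 clusters, at 42.2, 29.5 and 8.76 CPM in IHG and 23.9, 13.9 and 2.03 CPM in Ctrl. Bnip3, a mitophagy receptor, was higher in 3 of 7, while Hif1a itself was higher in 1 of 4, at 15.4 CPM in IHG and 9.51 CPM in Ctrl, and lower in 1, at 3.45 CPM in IHG and 5.65 CPM in Ctrl.

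In CPM, Slc2a1 (chromosome 4, 119108711 to 119137983, + strand) and Bpgm (chromosome 6, 34476207 to 34505613, + strand) ran the other way along the clusters, with higher levels where haemoglobin was high. Slc2a1 had 3.80, 9.70, 14.5, 22.2, 89.7, 217 and 177 CPM in IHG, against 3.57, 4.10, 8.62, 12.1, 35.5, 118 and 100.1 CPM in Ctrl. It was called higher in IHG in 4 clusters, with its highest relative log2 ratio, 1.31, at 74.4% haemoglobin. Bpgm had 35.7, 56.9, 67.7, 42.4, 258, 1057 and 681 CPM in IHG, against 21.4, 31.0, 35.0, 30.1, 140, 771 and 595 CPM in Ctrl. It too was called higher in 4 clusters, but in the richest the libraries lay close, with a relative log2 ratio of -0.09.

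Over the whole class neither of these genes was called, with relative log2 ratios of -0.08 for Slc2a1 and -0.42 for Bpgm. For both, most UMIs came from the haemoglobin-rich clusters, of which the Ctrl library held more cells.

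Gapdh was called higher in 1 cluster. It had relative log2 ratios of -0.04, 0.02, 0.16, 0.29, 0.46, 0.98 and 0.56, and at 83.5% haemoglobin stood at 124 CPM in IHG and 58.1 CPM in Ctrl. Ldha, which turns pyruvate to lactate and has 5 matches in the letters shown, had 692, 149, 208, 25.3, 11.8, 13.4 and 18.0 CPM in IHG, against 604, 185, 158, 19.7, 5.88, 6.48 and 6.26 CPM in Ctrl. It was called higher in the last 3 clusters. Gpi1, the isomerase that makes fructose 6-phosphate, was called higher in 5 of 7 clusters, Pkm, the pyruvate kinase of tissues other than liver and red cells, in 5, at low haemoglobin too, and Aldoa in 4. Hk1, the hexokinase of red cells, was called in none, with relative log2 ratios between -0.32 and 0.40. Mif, a cytokine that hypoxia can induce, was lower in IHG in 2 clusters, with 242 CPM in IHG and 439 CPM in Ctrl at 17.5% haemoglobin. Slc16a1, the lactate carrier MCT1, was called in no cluster, with relative log2 ratios between -0.51 and 0.35. Slc16a3 was lower in the cluster poorest in haemoglobin, at 27.4 CPM in IHG and 42.8 CPM in Ctrl, and higher at 74.4 and 83.5% haemoglobin. Hk3, Aldoc and Ldhb had too few UMIs to be measured in any of the 7. Gapdh, Pgk1, Pgam1, Eno1, Ldha, Tpi1 and Mif have near-identical processed copies in the genome, and how reads that match several places were counted is not given in the sources used here.

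**Figure D3:**
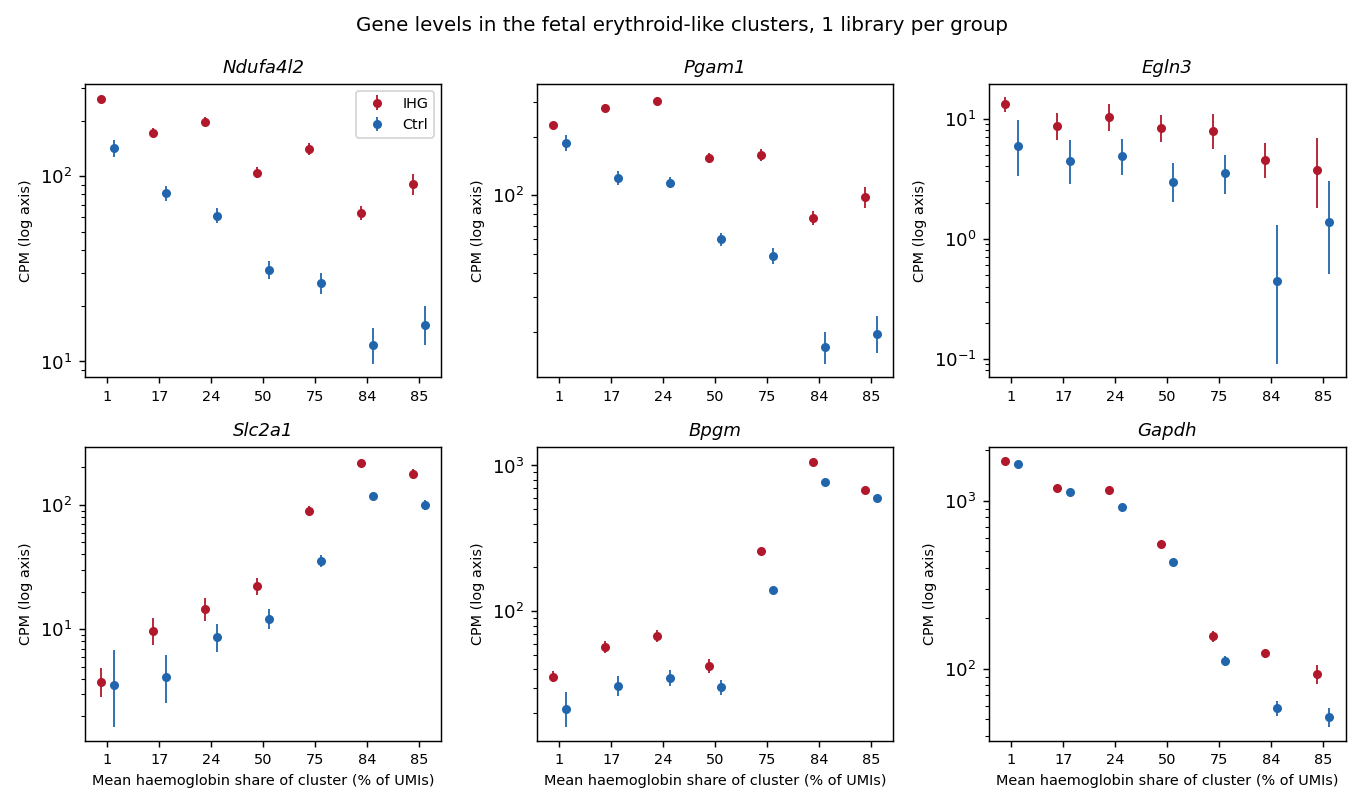
CPM (log axis) of 6 members in the 7 fetal erythroid-like clusters, placed by the mean haemoglobin share of the cluster; bars are exact 95% Poisson intervals of the count in 1 library per group. IHG points lie above Ctrl points in every cluster for Ndufa4l2 and Pgam1, and Slc2a1 and Bpgm are highest in the clusters richest in haemoglobin.

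A grouping of the same cells by their own haemoglobin share, was chosen after the data were seen. In bins of 0 to 5, 5 to 25, 25 to 50, 50 to 75, 75 to 85 and 85 to 100% haemoglobin UMIs, 4 of 29, 7 of 27, 9 of 26, 12 of 24, 15 of 20 and 12 of 17 measured members were higher in IHG. All genes called higher were 11.3, 9.40, 8.05, 10.1, 19.9 and 13.7%. Members called lower numbered 0, 2, 2, 2, 1 and 1, where 7.23, 7.89, 8.91, 11, 18.4 and 15% of all genes were lower. Hk1, called in no cluster, was the lower gene of both richest bins, at 8.52 and 2.11 CPM in IHG, against 15.7 and 3.08 CPM in Ctrl, the second pair from 11 and 26 UMIs. Ndufa4l2 was higher in all 6 bins, with relative log2 ratios of 0.84 to 2.56, as was Egln3, with 0.77 to 2.01. In the bin of 75 to 85% the median gene lay at a log2 ratio of -0.27 and not near 0.

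The list of other glycolysis genes had median relative log2 ratios of -0.21 to 0.29 over the 7 clusters, and the list of other hypoxia-induced genes of -0.10 to 0.16. In the whole erythroid-like class 11 of 28 measured hypoxia-induced genes outside the 32 were higher and 5 lower, and of 20 other glycolysis genes 3 were higher and 2 lower, beside 18.2% and 14.4% of all genes. Hmox1, the haem oxygenase and a leading gene of macrophage-like cells, was at 5.46 CPM in IHG and 0.18 CPM in Ctrl, from 281 and 8 UMIs. Pfkfb4, a regulator of phosphofructokinase, was at 1.30 CPM in IHG and 0.20 CPM in Ctrl. None of the 7 measured pentose phosphate genes and none of the 5 measured oxygen sensing factors was called.

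Transcripts of other cell types also differed between these clusters. Hepatocyte genes summed to between 99.6 and 154 CPM in IHG and between 37.6 and 59.8 CPM in Ctrl, and 6 to 8 of the 8 or 9 measured were higher in each cluster. Neutrophil granule genes summed to between 1410 and 2076 CPM in IHG and between 1068 and 1531 CPM in Ctrl, and the sum was higher in IHG in every cluster but the one poorest in haemoglobin. These sums are 0.068 to 0.105% of the level in hepatocyte-like cells in IHG and 0.043 to 0.068% in Ctrl, and 0.401 to 0.591% of the level in neutrophil-like cells in IHG and 0.312 to 0.447% in Ctrl. The 9 macrophage markers summed to between 17.7 and 27.6 CPM in IHG clusters and between 0 and 0.70 CPM in Ctrl clusters, and 2 of the 9 had no UMI in the whole Ctrl class. The IHG class held these markers at 0.111% of their level in macrophage-like cells of fetal IHG. At that percentage those cells would bring 4.75 CPM of Hmox1, against 5.46 CPM measured. The part of such transcripts in the Hmox1 value was not tested.

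Estimates of this kind take 1 class as the only source, with a fixed profile. At those percentages, hepatocyte-like cells would bring 0.099 CPM of Ndufa4l2 to the cluster with 74.4% haemoglobin in IHG and 0.026 CPM in Ctrl, against 141 and 26.4 CPM measured there. For Pgam1 neutrophil-like cells would bring 1.38 CPM in IHG and 0.59 CPM in Ctrl, against 161 and 48.7 CPM measured. For Gpi1 they would bring 2.98 CPM in IHG and 1.27 CPM in Ctrl, against only 6.41 and 2.94 CPM measured, and for Pkm 2.20 CPM in IHG and 1.06 CPM in Ctrl, against 7.05 and 3.28 CPM measured. Macrophage-like cells would bring 0.60 CPM of Pgam1 to this cluster in IHG and 0.0074 CPM in Ctrl. The part of such transcripts in the values of the members was not tested.

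Hepatocyte-like cells of the fetal libraries numbered 111 in IHG and 120 in Ctrl, and 11 of 24 measured members were higher in IHG, beside 18.8% of all genes, and 4 lower, beside 19.5%. Ldha was at 2224 CPM in IHG and 857 CPM in Ctrl, Gapdh at 3720 CPM in IHG and 1911 CPM in Ctrl, and Bnip3 at 355 CPM in IHG and 183 CPM in Ctrl. Ndufa4l2 was at 106 CPM in IHG and 49.9 CPM in Ctrl. These cells carried haemoglobin transcripts at 1.97% of UMIs in IHG and 15.8% in Ctrl, and all 19 proliferation genes were lower in IHG. Hepatocyte genes summed to 147553 CPM in IHG and 88416 CPM in Ctrl, and the part of these differences in the members' values was not tested.

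Leaving out cells with over 10% haemoglobin UMIs, 8 in IHG and 28 in Ctrl, left 3 members higher, Pkm, Ldha and Ndufa4l2, and 1 lower, Ldhb, of 21 measured, beside 15.2% and 13.2% of all genes. Ldha then stood at 2309 CPM in IHG and 1302 CPM in Ctrl, a relative log2 ratio of 0.75. Bpgm turned over, at 22.1 CPM in IHG and 16.2 CPM in Ctrl, against 22.6 CPM in IHG and 70.6 CPM in Ctrl with all cells.

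Fewer members were called higher in IHG in fetal neutrophil-like and monocyte-like cells than in erythroid-like cells, as were fewer of all genes. In erythroid-like cells these were 9 of 32 members, beside 18.2% of all genes. In neutrophil-like cells, 2089 in IHG and 1108 in Ctrl, 4 of 30 measured members were higher, beside 8.08% of all genes, and 4 lower, beside 15.6%, or 7 higher and 4 lower without centring, beside 13.8% and 12.1%. Slc16a3 was at 192 CPM in IHG and 102 CPM in Ctrl, whereas the lactate carrier Slc16a1 was at 1.25 CPM in IHG and 2.97 CPM in Ctrl, from 22 and 26 UMIs, and Slc16a3 in monocyte-like cells at 56.9 CPM in IHG and 57.4 CPM in Ctrl. Pfkl, a phosphofructokinase subunit, was at 9.92 CPM in IHG and 5.70 CPM in Ctrl. Ddit4, which restrains mTORC1 signalling under stress, was at 0.74 CPM in IHG and 3.88 CPM in Ctrl, from 13 and 34 UMIs.

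Of the fetal neutrophil-like clusters, that led by stefin genes held 35 IHG and 160 Ctrl cells and was not compared by itself. Slc16a3 was higher within each of the 3 others, which held at least 50 cells of each library. It had 61.9, 234 and 599 CPM in IHG, against 29.6, 119 and 282 CPM in Ctrl, with log2 ratios of 1.06 (interval 0.76 to 1.39), 0.98 (0.80 to 1.16) and 1.09 (0.93 to 1.25). Among these 3, both libraries had the least Slc16a3 in the cluster led by Chil3, Camp and Ngp and the most in the cluster led by Cxcl2. Mif, lower in IHG over the whole class at 35.3 CPM against 63.6 CPM in Ctrl, was not called in any of these 3 clusters, with relative log2 ratios of 0.07 to 0.53.

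Haemoglobin transcripts moved with Bpgm in several fetal classes, and their part in its values was not tested. In neutrophil-like cells they summed to 10229 CPM in IHG and 56652 CPM in Ctrl, and Bpgm was at 10.0 CPM in IHG and 30.9 CPM in Ctrl. In monocyte-like cells, 314 in IHG and 210 in Ctrl, Bpgm was at 16.6 CPM in IHG and 45.6 CPM in Ctrl, and without cells of over 10% haemoglobin at 13.8 CPM in IHG and 15.5 CPM in Ctrl. In B-like cells they summed to 17352 CPM in IHG and 76594 CPM in Ctrl, and Bpgm was at 26.2 CPM in IHG and 50.4 CPM in Ctrl, or 22.4 and 19.7 CPM without such cells. Myeloid progenitor-like cells went the other way, with Bpgm at 17.2 CPM in IHG and 7.93 CPM in Ctrl.

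In the same monocyte-like cells 2 of 29 measured members were higher in IHG, beside 10.8% of all genes, and 5 lower, beside 12.2%, or 7 higher and 4 lower without centring, beside 20.3% and 6.91%. Pfkp, the platelet-type phosphofructokinase, was at 63.2 CPM in IHG and 32.6 CPM in Ctrl, and Egln1 at 40.2 CPM in IHG and 21.3 CPM in Ctrl. Slc2a1 was lower, at 19.97 CPM in IHG and 37.3 CPM in Ctrl. Pfkp stayed at 63.8 CPM in IHG and 35.3 CPM in Ctrl without the haemoglobin-rich cells. Slc2a1 was then still called lower, at 19.7 CPM in IHG and 27.6 CPM in Ctrl. Its log2 ratio was -0.49, with an interval of -1.07 to 0.12 that includes 0. Myeloid progenitor-like cells had 6 higher and 4 lower of 29 members, beside 16.3% and 16.4% of all genes, and megakaryocyte-like cells 7 higher and 4 lower of 30, beside 18.1% and 18.2%. In megakaryocyte-like cells, 264 in IHG and 57 in Ctrl, Egln3 was at 51.9 CPM in IHG and 15.4 CPM in Ctrl, from 262 and 11 UMIs. Macrophage-like cells numbered 351 in IHG and 6 in Ctrl and were not compared.

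Fetal B-like cells, 1024 in IHG and 2415 in Ctrl, had 3 of 30 measured members higher, beside 8.60% of all genes, and 4 lower, beside 12.2%, or 12 higher and 3 lower without centring, beside 16.3% and 8.06%. Aldoa, the aldolase of most tissues, was at 226 CPM in IHG and 124 CPM in Ctrl, Pfkp at 16.6 CPM in IHG and 8.56 CPM in Ctrl, and Ndufa4l2 at 9.05 CPM in IHG and 3.68 CPM in Ctrl. Hk2 was lower, at 7.02 CPM in IHG and 13.7 CPM in Ctrl, as was Ddit4, at 18.6 CPM in IHG and 37.4 CPM in Ctrl. Of 17 dissociation-induced immediate-early genes 16 were also lower in IHG, with a median relative log2 ratio of -1.68, and their part in the values of Hk2 and Ddit4 was not tested.

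Aldoa was higher within all 5 B-like clusters, with relative log2 ratios of 0.59 to 1.01. Hk2 was lower in each of the 4 B-like clusters where it was measured, with 3.32, 9.97, 6.70 and 3.94 CPM in IHG, against 7.28, 12.99, 27.6 and 16.1 CPM in Ctrl. Members called higher in the 5 clusters numbered 6 of 23, 4 of 29, 6 of 27, 3 of 24 and 4 of 15, beside 9.17, 9.40, 10.5, 10.7 and 13% of all genes, and members called lower 1, 4, 3, 3 and 1, beside 13, 14.2, 13.5, 13.6 and 13.8%.

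Stromal cells of the fetal libraries were few. Endothelial-like cells, 170 in IHG and 63 in Ctrl, had 5 of 28 measured members higher, beside 18.2% of all genes, and 3 lower, beside 16.8%. Ndufa4l2 was lower here, at 39.0 CPM in IHG and 64.3 CPM in Ctrl, from 59 and 29 UMIs, while it was higher in erythroid-like cells, and the difference between the classes was not tested. Egln3 had 26 UMIs, or 17.2 CPM, in IHG and none in Ctrl, where 3 UMIs, as of Slc16a3, come to 6.65 CPM, and Egln1 was at 54.9 CPM in IHG and 22.2 CPM in Ctrl. Bpgm was at 28.4 CPM in IHG and 99.8 CPM in Ctrl, and without the haemoglobin-rich cells at 17.2 CPM in IHG and 12.1 CPM in Ctrl.

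**Figure D4:**
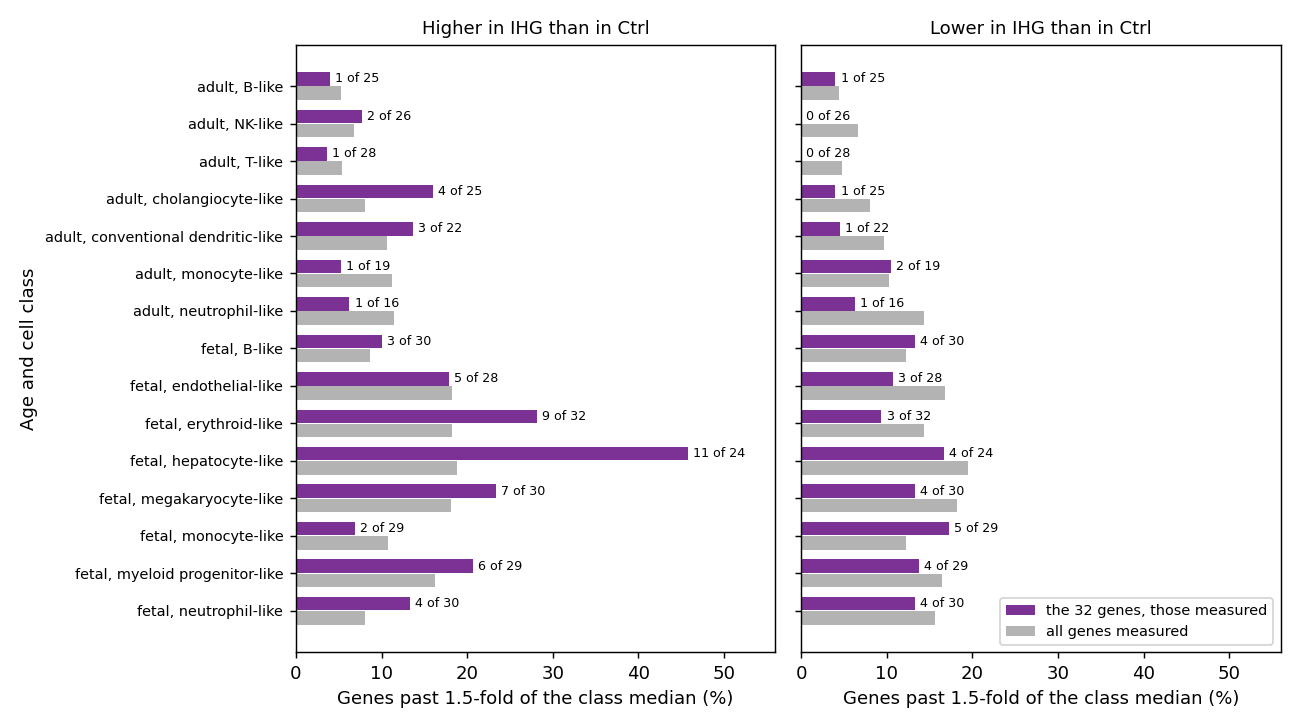
Percent of the members measured (purple, with their number) and of all genes measured (grey) that lay at least 1.5-fold above (left) or below (right) the class median in IHG over Ctrl, for classes with at least 50 cells in each library. Purple exceeds grey most for the fetal hepatocyte-like cells, 11 of 24 higher, and the fetal erythroid-like cells, 9 of 32.

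Few of the members were called between IHG and Ctrl in adult B-like, T-like and NK-like cells, where few of all genes were called too. B-like cells, 3432 in IHG and 1842 in Ctrl, had 1 of 25 measured members higher, beside 5.28% of all genes, and 1 lower, beside 4.45%. The lower gene was Slc2a1, at 16.8 CPM in IHG and 28.1 CPM in Ctrl, a log2 ratio of -0.75 (interval -1.13 to -0.37). T-like cells had 1 higher of 28 and none lower, beside 5.36% and 4.82%. The higher gene in both classes was Bnip3, on 30 and 14 UMIs in IHG and 11 and 7 UMIs in Ctrl, with intervals that include 0.

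Hk2 was higher in adult NK-like cells, at 32.9 CPM in IHG and 16.6 CPM in Ctrl, from 68 and 28 UMIs, a log2 ratio of 0.97 (interval 0.33 to 1.68). Pdk1, which restrains pyruvate entry to mitochondria, was the other of the 2 members called there of 26, beside 6.84% of all genes called higher and 6.63% lower. The NK-like cluster led by Klra4 and Klra8 had 0 of 21 measured members higher, beside 8.85% of all genes. That led by Cd7 and Gzmb had 3 of 23 higher, beside 8.33%. No member was lower in either, beside 8.64% and 8.36% of all genes. In neutrophil-like cells 1 of 16 was higher and 1 lower, beside 11.4% and 14.3%, and in monocyte-like cells 1 of 19 higher and 2 lower, beside 11.2% and 10.3%. Conventional dendritic-like cells had 3 of 22 higher and 1 lower, beside 10.6% and 9.67%, and cholangiocyte-like cells 4 of 25 higher and 1 lower, beside 8.01% and 8.08%. In cholangiocyte-like cells Ddit4 was at 12.1 CPM in IHG and 27.1 CPM in Ctrl, from 9 and 51 UMIs.

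Adult stromal classes had under 50 cells in at least 1 library. In endothelial-like cells, 47 in IHG and 62 in Ctrl, Slc2a3 was at 80.5 CPM in IHG and 20.8 CPM in Ctrl, from 16 and 5 UMIs, and Ddit4 at 35.2 CPM in IHG and 108 CPM in Ctrl, from 7 and 26 UMIs. In stellate/fibroblast-like cells, 61 in IHG and 44 in Ctrl, Hk2 was at 679 CPM in IHG and 1076 CPM in Ctrl, and Ldhb at 31.3 CPM in IHG and 121 CPM in Ctrl. In endothelial-like cells 3 of 17 members were higher and 2 lower, beside 15.5% and 17.6% of all genes, and in stellate/fibroblast-like cells 2 of 17 were higher and 5 lower, beside 19.2% and 16.7%. Mesothelial-like cells, 33 in IHG and 71 in Ctrl, had 1 of 21 members higher and 2 lower, beside 12.1% and 13.8% of all genes, and Egln3 was at 13.7 CPM in IHG and 52.9 CPM in Ctrl, from 4 and 33 UMIs.

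The other small classes had 20 to 40 cells in a library. Fetal NK-like cells had 4 of 16 members higher and 0 lower, beside 16.0% and 16.5% of all genes, and fetal mast/basophil-like cells 0 of 17 higher and 5 lower, beside 13.9% and 14.2%. Adult plasma-like cells had 2 of 14 higher and 1 lower, beside 12.7% of all genes either way, and adult plasmacytoid dendritic-like cells 2 of 8 higher and 1 lower, beside 12.8% and 12.6%.

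More genes lay past 1.5-fold between the ages than between IHG and Ctrl in the classes found at both ages, and age, cell stage, perfusion, dissociation and depth cannot be told apart. Some fetal B-like clusters had Igll1 and Vpreb1 among their leading genes, and others Igkc and Ighm. Each adult B-like cluster had Ighd, Fcer2a or Ms4a1 among them. B-like cells of the adult liver had lower Tpi1, Gapdh, Pgk1, Pgam1, Eno1, Pkm and Ldha and higher Pfkp, Slc2a3 and Hif1a than those of the fetal liver, in both the IHG and the Ctrl pair of libraries. Ldha was at 57.4 CPM in adult and 590 CPM in fetal IHG, and at 67.9 CPM in adult and 375 CPM in fetal Ctrl. Gapdh was at 388 CPM in adult and 1932 CPM in fetal IHG, and at 391 CPM in adult and 1435 CPM in fetal Ctrl. Slc2a3 was at 18.3 CPM in adult and 3.92 CPM in fetal IHG, and at 17.7 CPM in adult and 3.30 CPM in fetal Ctrl.

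Relative to the median gene, 6 of 29 measured members were higher and 16 lower in adult than in fetal B-like cells of IHG, beside 35.6% and 36.7% of all genes, and 6 of 30 higher and 17 lower in Ctrl, beside 34.6% and 36.1%. The lower ones in both pairs also included Pfkm, Bpgm and Ldhb, and the higher ones Slc2a1 and P4ha1, a collagen prolyl hydroxylase, while Hk1, Gpi1, Pfkl and Aldoa were called in neither pair. Ndufa4l2 had 1 UMI in adult IHG and none in adult Ctrl B-like cells, against 67 in fetal IHG and 49 in fetal Ctrl.

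Neutrophil-like cells, 107 and 188 in adult IHG and Ctrl against 2089 and 1108 in fetal IHG and Ctrl, differed in both directions. The fetal class included the cluster led by Chil3, Camp and Ngp. Retnlg and Il1r2 were among the leading genes of the adult cluster and of the fetal cluster led by Cxcl2. Vegfa, the endothelial growth factor, was at 293 CPM in adult and 5.64 CPM in fetal IHG, and at 267 CPM in adult and 5.13 CPM in fetal Ctrl. Hif1a was at 240 CPM in adult and 25.2 CPM in fetal IHG, and at 306 CPM in adult and 25.4 CPM in fetal Ctrl. Slc2a1, Slc2a3, Slc16a3, Hk2, Hk3 and Pfkp were also higher in the adult library of both pairs, while Gapdh, at 815 CPM in adult and 2068 CPM in fetal IHG and 798 CPM in adult and 1349 CPM in fetal Ctrl, and most other enzymes were lower, as were Egln1, Ndufa4l2 and Mif in both pairs.

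By count, 12 of 29 members were higher and 15 lower in adult neutrophil-like cells of IHG, beside 33.3% and 34.9% of all genes, and 10 of 26 higher and 15 lower in Ctrl, beside 34.7% and 35.1%. Immediate-early genes, which dissociation can induce, summed to 23169 CPM in adult and 1927 CPM in fetal IHG neutrophil-like cells, and to 19140 CPM in adult and 2253 CPM in fetal Ctrl ones; their part in the values of Vegfa and Hif1a was not tested.

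Monocyte-like cells followed in part. Hif1a was at 214 CPM in adult and 86.5 CPM in fetal IHG, and at 202 CPM in adult and 65.7 CPM in fetal Ctrl, while Gapdh was at 1196 CPM in adult and 3094 CPM in fetal IHG, and at 1037 CPM in adult and 2188 CPM in fetal Ctrl. Of 28 members 10 were higher and 8 lower in IHG, beside 29.8% and 30.5% of all genes, and of 24 in Ctrl 6 were higher and 5 lower, beside 28.6% and 29.8%. Hk2, P4ha1 and Vegfa were higher in adult than in fetal monocyte-like cells in both pairs. Endothelial-like cells could be set side by side in Ctrl only, with 5 of 20 members higher, beside 31.6%, and 8 lower, beside 32.1%, and Vegfa was at 117 CPM in adult and 22.2 CPM in fetal Ctrl.

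**Figure D5:**
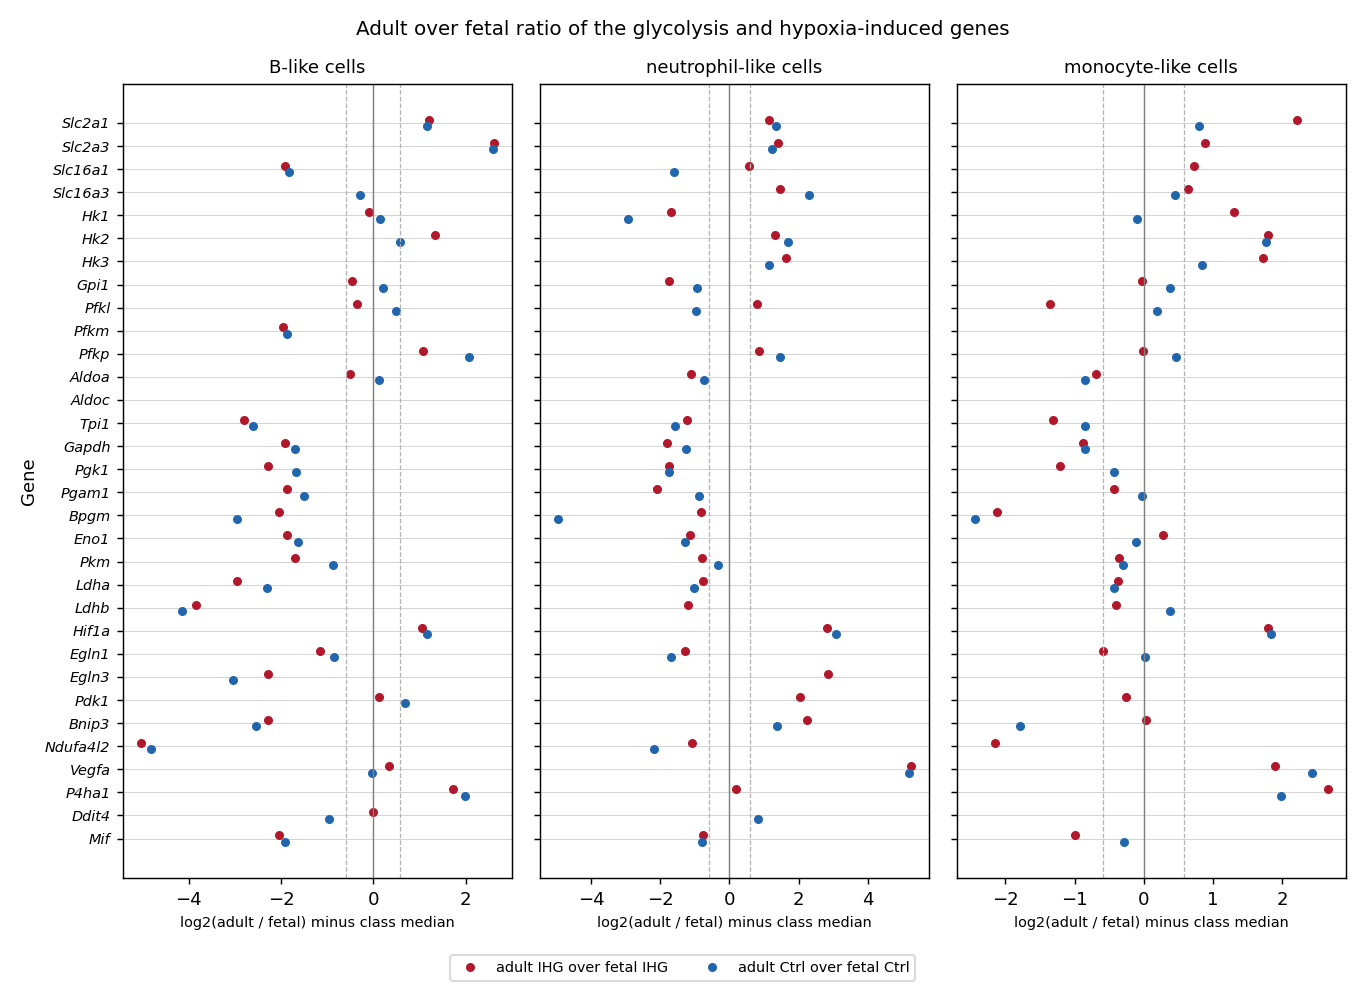
Log2 ratio of CPM, adult over fetal, minus the median gene of the class, for each member with at least 20 UMIs in the pair of libraries, in the IHG pair (red) and the Ctrl pair (blue); dashed lines mark 1.5-fold. Hif1a lies right of the lines and Gapdh and Tpi1 left of them in all 3 classes; points of genes with 0 UMIs in the adult library, such as Bpgm in Ctrl neutrophil-like cells and Ndufa4l2 in Ctrl B-like cells, depend on the 0.5 added to each count.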

How the data were processed

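Raw counts of UMIs per gene and cell barcode were used as deposited, 1 table per library, and per the file headers come from Cell Ranger 5.0.0. The submitters' processing notes list mm10, Cell Ranger and Seurat. How multi-mapped reads were treated is not given in the sources used here.

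A barcode was kept if it had 300 or more genes and no more than 25% of UMIs from mitochondrial genes, which left 7925, 7594, 6500 and 4951 cells after doublets in fetal IHG, fetal Ctrl, adult IHG and adult Ctrl. Scrublet's own threshold removed 267 and 107 doublets in fetal IHG and Ctrl; it marked under 0.5% of barcodes in the adult libraries, so scores above the 95th percentile, 286 in IHG and 244 in Ctrl, were removed there. Clustering took both libraries of an age at once, with scanpy 1.11.5 (2000 variable genes, 30 components, 15 neighbours, Leiden resolution 1.0) without the 32 genes, and clusters were named from marker lists. The naming score was revised once after clusters had been seen. UMIs were summed over the cells of a class, 0.5 was added to each count for ratios, and intervals are exact Poisson ones for levels and exact conditional ones for ratios. Genes with at least 20 UMIs in both libraries together were called past 1.5-fold of the class median, in classes of at least 50 cells per library. Smaller classes with at least 20 cells per library were called by the same rule and are described apart as small. The median gene of a class moved by up to 0.70 on the log2 scale between libraries of an age.

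The members and lists were chosen with earlier results of these data known. Genes outside the 32 are named only as the largest ratios of a listed pathway or as leading genes of a cluster. Promoters are RefSeq entries on GRCm38.p6, and gene positions are GENCODE M21. The ratio code was tested on simulated data. Alternatives changed scaling, minimum counts, filters, clustering and weighting, and 4 of them were chosen after the data were seen.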

Additional observations from a re-analysis of the deposited data

How the results depend on the processing

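The 258 counts of members recomputed under another setting stayed within 1.5 times of the reported count in 205 cases, and of 839 gene values over the 56 called gene and class pairs 696 moved little, 129 moved and 14 turned over. No paired analysis was possible because each group holds 1 library and the result comes from no test. Depth limits the adult neutrophil-like and monocyte-like classes and the sparse genes most. In the following, reported counts stand in brackets.

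Without centring on the median gene, members higher in fetal IHG numbered 26 [9] in erythroid-like, 7 [4] in neutrophil-like, 7 [2] in monocyte-like and 12 [3] in B-like cells, beside 58.2, 13.8, 20.3 and 16.3% of all genes, erythroid-like cells had 1 [3] lower, beside 2.20%, and adult neutrophil-like cells 0 [1] higher, beside 9.26%. With totals free of haemoglobin, mitochondrial and ribosomal protein genes and no centring, the fetal counts were 17 higher and 1 lower in erythroid-like, 6 higher in monocyte-like and 7 higher in B-like cells, beside 32.8, 5.78, 15.7 and 12.4%, and adult neutrophil-like cells had 0 higher, beside 8.72%.

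With at least 50 UMIs, counts were 1 lower in fetal erythroid-like, 2 [4] lower in fetal neutrophil-like and 2 [5] lower in fetal monocyte-like cells, 0 [1] higher in adult T-like and B-like cells, 1 [2] higher in adult NK-like cells and 0 [1] lower in adult neutrophil-like cells. With at least 1 UMI, adult T-like cells had 2 higher and 1 [0] lower, B-like cells 4 higher and 3 [1] lower, NK-like cells 4 higher and 1 [0] lower, and neutrophil-like cells 11 higher and 2 lower.

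Taking the mean of within-cluster ratios gave 0 lower in fetal erythroid-like and 1 lower in fetal neutrophil-like cells, 0 higher and 1 lower in adult T-like, 0 higher in adult B-like and 1 higher in adult NK-like cells. Keeping doublets gave 2 lower in fetal neutrophil-like, 4 higher in monocyte-like and 5 higher in B-like cells, and 0 lower in adult B-like and 2 higher in adult neutrophil-like cells. Leaving out haemoglobin-rich cells gave 2 lower in fetal neutrophil-like and in monocyte-like cells. Thinning cells to 1000 UMIs gave 0 lower in fetal monocyte-like cells, 2 higher and 1 lower in adult T-like, 0 lower in adult B-like, 1 higher and 2 lower in adult NK-like and 2 higher in adult neutrophil-like cells. Weighting cells equally gave 6 higher in fetal B-like, 0 higher in adult B-like and 1 lower in adult NK-like cells.

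Clustering each library by itself gave 0 higher in adult T-like cells, at least 500 genes per cell 0 higher in adult neutrophil-like cells, and leaving out the cell with the most UMIs 3 lower there. Without the erythroid-like cluster poorest in haemoglobin, added after the data were seen, 1 member was lower.

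Relative log2 ratios that turned over were, with each library clustered by itself, Pfkp at -0.48 and Ldha at -0.021 in erythroid-like cells and Ldhb at 0.71 in hepatocyte-like cells, and, without the cluster poorest in haemoglobin, Pfkp at -0.65. In neutrophil-like cells Bpgm was at 0.13 with doublets kept, and Mif at 0.13 with at most 10% mitochondrial UMIs, 0.22 at resolution 0.5, 0.26 as a within-cluster mean and 0.15 without a cluster led by stefin genes. Ndufa4l2 in monocyte-like cells was at 0.021 with cells weighted equally and 1.42 without haemoglobin-rich cells. Without those cells Bpgm was at 0.076 in B-like and 0.32 in hepatocyte-like cells, and Slc2a1 in hepatocyte-like cells was at 0.59 with cells weighted equally. The cause of these changes was not tested. Ndufa4l2 was called higher in every erythroid-like cluster at resolution 0.5 and 2.0, at 10% mitochondrial UMIs, at 500 genes and with doublets kept, in 5, 11, 7, 6 and 6 clusters.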
